A study of Mus musculus with 6 samples.

Results

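The 37 genes described here encode the machinery that shortens the poly(A) tails of mRNAs and degrades the mRNAs in mouse oocytes. They were chosen by name, and each was found once among the 60193 rows of the deposited expression table, of which 53700 carry Ensembl identifiers and 6493 are loci assembled from the reads. The genes fall into 9 groups by role, which are the BTG/TOB adaptors, the deadenylases and the other subunits of the CCR4-NOT complex, the PAN2-PAN3 and PARN deadenylases, the RNA-binding recruiters, the terminal uridylyltransferases, the decapping factors, the exonucleases and the helicase of nonsense-mediated decay (NMD).

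RNA was sequenced from metaphase II (MII) oocytes of ICR mice aged 42 to 45 weeks, an outbred strain used here at an advanced reproductive age, with 3 samples matured in vitro (IVM) and 3 matured in vivo (IVO). Both groups came from females injected with 5 IU of PMSG, a gonadotropin that stimulates follicle growth. IVM oocytes were freed of cumulus cells at the germinal vesicle stage, 46 h after PMSG, and cultured in M16 medium for 12 h, whereas IVO oocytes matured in females that also received 5 IU of hCG and were taken from the oviduct 14 h later. Each sample pooled 20 oocytes from 3 mice, so the spread given below is between pools, and the route of maturation cannot be told apart from the contact with cumulus cells, the hCG injection or the time allowed for maturation.

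A growing oocyte stores mRNA, and transcription is largely silent by the time meiosis resumes. From then on, the level of a maternal mRNA is set mainly by its stability and the length of its tail. During maturation, adaptors such as BTG4 bring the CCR4-NOT deadenylase to mRNAs, and mRNAs with short tails can be uridylated, decapped and degraded from either end. The cDNA was primed on the poly(A) tail, so less mRNA and mRNA with a shorter tail cannot be told apart in these values.

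Several mRNAs of this machinery are stored with short tails and translated during maturation, which in oocytes is directed by cytoplasmic polyadenylation elements (CPEs) near the 3′ end. The letters TTTTAT or TTTTAAT, searched on the sense strand in the last 100 bases of the annotated transcript, were found in 6 of the 37 genes (16.2%). Of the 31 genes tested below, 6 (19.4%) held a CPE, against 1891 of 9793 tested protein-coding genes (19.3%), so the share matched that of the background. These 6 were Btg4, Cnot7, Cnot8, Pan2, Pan3 and Dcp1a. A polyadenylation hexamer (AATAAA or ATTAAA) lay in the last 50 bases of 28 of the 37 genes (75.7%), and of 77.2% of the tested protein-coding genes. The CPE windows of the adaptor Btg4 and of the paralogous catalytic subunits Cnot7 and Cnot8 are shown for their place in the complex, in the sense direction and 5′ to 3′, with CPEs and hexamers in capitals. They were read from the GRCm39 genome, lie in the 3′ untranslated region of the canonical transcript, and are at chr9:51031097-51031126 (plus strand), chr8:40943900-40943929 (minus strand) and chr11:58009378-58009407 (plus strand), respectively.
Btg4: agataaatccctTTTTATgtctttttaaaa
Cnot7: accctaagacacTTTTATtcctttcttttt
Cnot8: tatgtTTTTAATtttgtaaAATAAAgattg
The CPE began 67 bases from the annotated end in Btg4, 33 bases in Cnot7 and 38 bases in Cnot8. The annotated end need not be the end used in oocytes, and neither Btg4 nor Cnot7 had a hexamer in its last 50 bases.

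The libraries held an inferred 16500000 to 19300000 fragments, and 3 fragments on a transcript of 1000 bases correspond to 0.196 to 0.232 FPKM (fragments per kilobase of transcript, scaled to the size of the library), a floor that covers counting error only. The inferred mean fragment length was 202 to 218 bases in IVM and 248 to 262 bases in IVO libraries. The summed FPKM ranged from 1826738 to 2111777 in IVM and from 1560813 to 1643682 in IVO samples, and the median log2FC of all 18818 tested genes was -0.30 (IVO minus IVM on log2(FPKM + 1)). It was -0.04 after median-ratio scaling and 0.17 after quantile normalization. All 12 oocyte markers reached 1 FPKM, and their summed level was 18083 to 21497 FPKM in the IVM pools compared with 14448 to 15665 FPKM in the IVO pools. Single markers moved by more or by less than this sum, which Dppa3 and H1f8 dominate. The mean of Zp2 was 562 FPKM in IVM and 39.9 FPKM in IVO, that of Nlrp5 139.8 and 35.7 FPKM, and that of Npm2 1044 and 1029 FPKM. Of 15 cumulus and granulosa markers, 5 reached 1 FPKM in any sample and Amh was at 0 throughout, with sums of 70.4 to 91.4 and 50.3 to 77.2 FPKM. Single markers went either way here too. The mean of Nr5a2 was 34.0 FPKM in IVM and 15.9 FPKM in IVO. Those of Has2 (0.093 and 0.30 FPKM), Ptx3 (0.02 and 0.11 FPKM) and Tnfaip6 (0.057 and 0.43 FPKM) were low and higher in IVO. Oviduct markers (2 of 7 reached 1 FPKM) summed to 23.0 to 30.7 and 26.5 to 30.2 FPKM, and blood markers (4 of 7) to 0 to 1.6 and 1.05 to 20.9 FPKM. The highest blood sum was in IVO sample 3, where Lyz2 had 15.67 FPKM, compared with 1.04 FPKM in IVO samples 1 and 2. Hbb-bs had 0, 2.33 and 2.04 FPKM in IVO samples 1 to 3 and 0 in each IVM sample. The part of these differences in the results below was not tested, except where a value under another scaling is given.

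The levels of the 37 genes ranged from a few fragments per library or fewer to among the highest of the Ensembl genes. FPKM is a level per length, which allows genes to be compared, although a short tail can also lower the value of a gene. On average over the 6 samples, 10 genes lay at 100 FPKM or more, 14 between 10 and 100 FPKM, 7 between 1 and 10 FPKM, and 6 below 1 FPKM. Btg4 was first, at rank 17 of the Ensembl genes by mean FPKM, followed by Dis3l at rank 147 and Cnot7 at rank 355. The 6 genes below 1 FPKM, which were not tested, were Tob1, Cnot10, Zfp36l1, Zfp36l2, Dcp1b and Edc3.

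**Figure D1:**
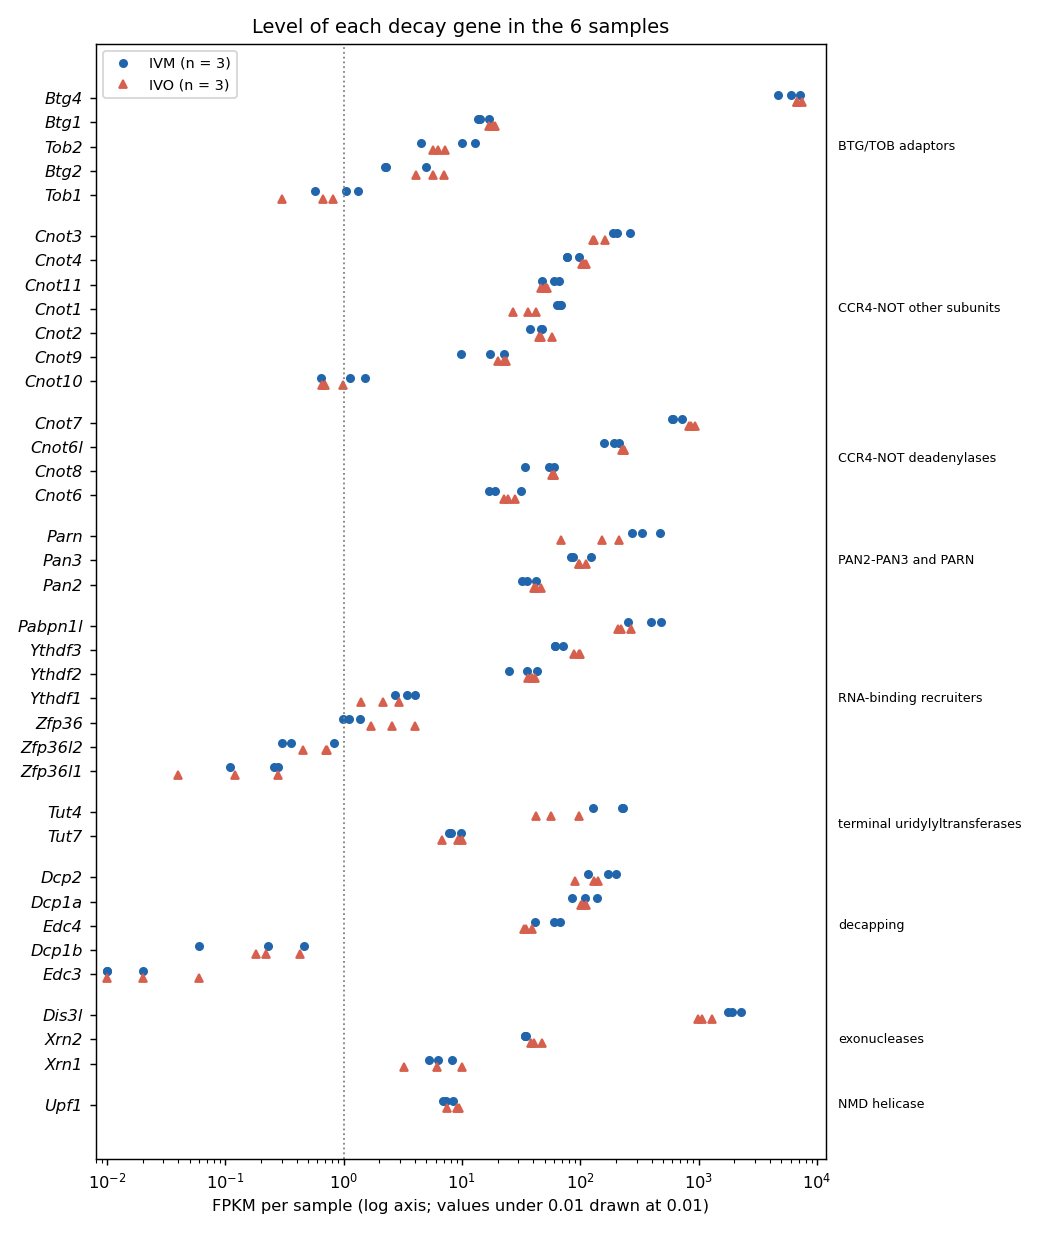
FPKM (log axis) of each of the 37 decay genes in the 3 IVM (circles) and 3 IVO samples (triangles), ordered by role and by mean level within a role, with a dotted line at 1 FPKM. Btg4 lies at 4656 FPKM or more in all 6 samples, and Edc3 does not exceed 0.06 FPKM in any.

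Of the 31 tested genes, 4 were lower in IVO oocytes at an adjusted p under 0.05 (Cnot1, Parn, Tut4 and Dis3l) and 1 was higher (Ythdf3), while 26 did not pass. The test was limma with Benjamini-Hochberg adjustment over all tested genes. These 5 genes are 16.1% of the tested members, compared with 23.4% of all tested genes (21.5% lower and 1.87% higher in IVO). The difference between these shares was not tested, and it depended on the scaling, as given below. All members are Ensembl genes, whereas the 18818 tested genes include assembled loci. With Ensembl genes only, 2530 of 13154 were called lower and 339 higher, and the median log2FC was -0.18. With the added threshold of |log2FC| ≥ 1, Parn and Tut4 were lower and 0 genes were higher, compared with 17.9% and 0.606% of all tested genes. At an unadjusted p under 0.05 the numbers were 7 lower and 3 higher, compared with 5903 lower and 1047 higher of all 18818 tested genes.

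The log2FC was negative in 13 and positive in 18 of the 31 genes, with a median of 0.17. In 21 it lay above the median of all tested genes of -0.30, which was -0.18 with Ensembl genes only. In 12 genes the 3 IVM and 3 IVO values did not overlap, with IVO lower in 6 and higher in 6, whereas values were apart in 42.2% of all tested genes (32.6% IVO lower and 9.62% IVO higher). The calls depended on how libraries were scaled. After median-ratio scaling 0 genes were called lower and 4 higher (Cnot4, Cnot6l, Cnot7 and Ythdf3), with 13.2% of all tested genes lower and 7.14% higher. After quantile normalization the numbers were 0 and 12, with 10.7% and 14.8% of all tested genes. The signs of the 5 called genes were the same under every scaling.

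**Figure D2:**
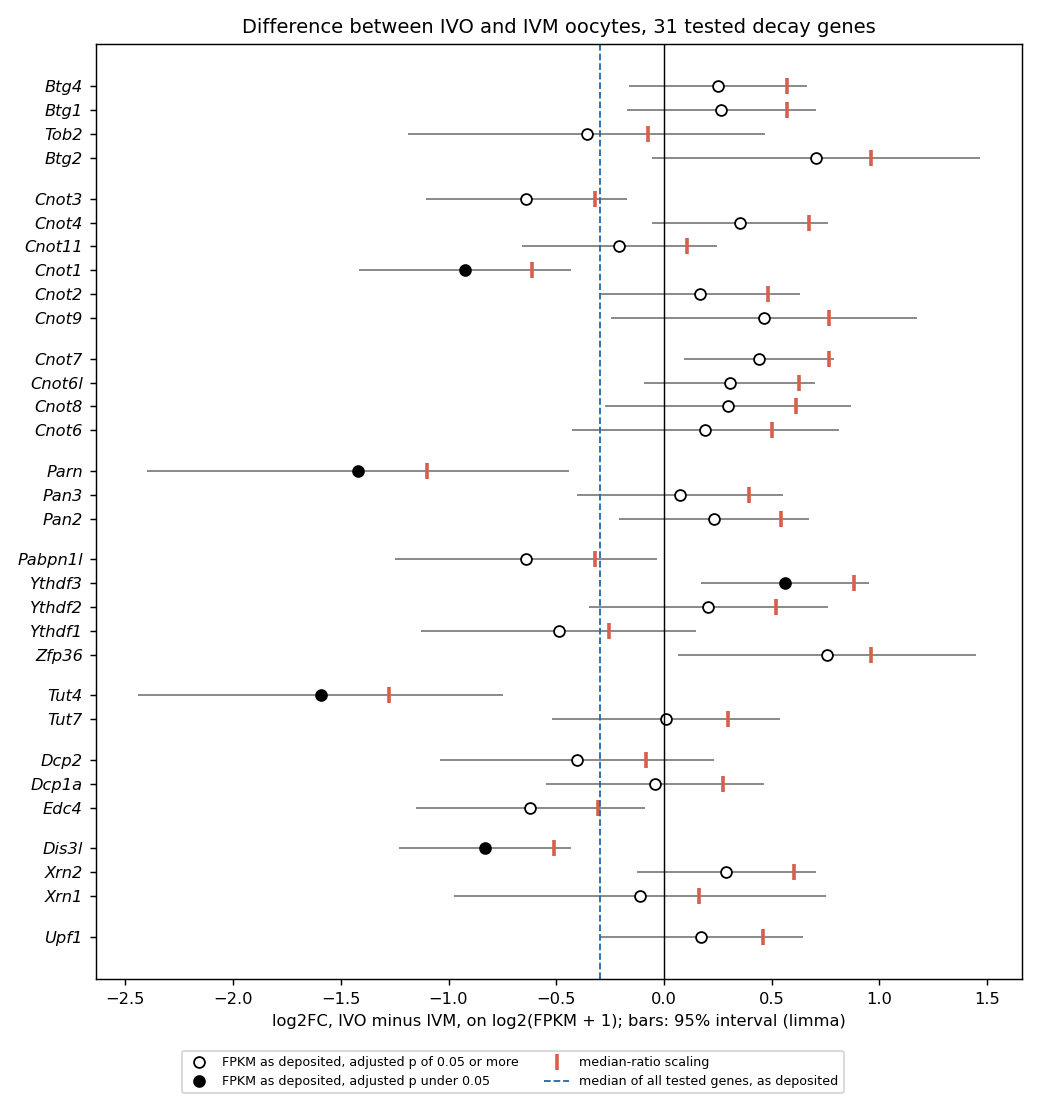
log2FC (IVO minus IVM, log2(FPKM + 1) scale) of the 31 tested decay genes, with 95% limma intervals, filled where the adjusted p was under 0.05. Red ticks give the estimate after median-ratio scaling, and the dashed line is the median of all tested genes, -0.30. The 5 filled points are Cnot1, Parn, Ythdf3, Tut4 and Dis3l, and every red tick lies to the right of its point.

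Among the BTG/TOB adaptors, which link CCR4-NOT to mRNAs or their bound proteins, none of the 4 tested genes was called. Btg4, which is needed for the clearance of maternal mRNA, had 6089, 7242 and 4656 FPKM in IVM samples 1 to 3 and 6801, 6799 and 7479 FPKM in IVO samples 1 to 3. The widest spread was within IVM, whose samples lay on both sides of IVO samples 1 and 2. The group means were 5996 ± 1296 and 7026 ± 392 FPKM (SD, n = 3 each), with a log2FC of 0.25 (95% interval -0.16 to 0.66, limma adjusted p = 0.352). After median-ratio scaling the log2FC of Btg4 was 0.57 (adjusted p = 0.0952), and after scaling to the same sum it was 0.59 and passed (adjusted p = 0.0197). The somatic relatives Btg1 and Btg2 ranged from 13.6 to 19.0 FPKM and from 2.24 to 7.05 FPKM over the 6 samples, and both passed after quantile normalization (log2FC 0.76 and 1.18, adjusted p = 0.0256 and 0.0305). Tob2 ranged from 4.53 to 12.8 FPKM, and Tob1 lay between 0.3 and 1.31 FPKM.

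The non-catalytic subunits of CCR4-NOT did not move as a block. Cnot1 encodes the scaffold on which the complex is assembled (chromosome 8, 96445562 to 96534123, GRCm39). Cnot1 had 67.7, 64.0 and 68.4 FPKM in IVM and 36.3, 27.2 and 42.1 FPKM in IVO samples. Each IVO sample lay well below each IVM sample. IVO averaged 52.7% of IVM (35.2 ± 7.51 compared with 66.7 ± 2.36 FPKM, SD, n = 3 each), and the log2FC was -0.93 ± 0.21 (SE, limma adjusted p = 0.0201). After median-ratio scaling it was -0.61 (adjusted p = 0.0797). The call was lost without IVM sample 1 (adjusted p = 0.0603), IVM sample 3 (0.0531), IVO sample 1 (0.0529) or IVO sample 2 (0.0630). A stretch of 1.87% of the annotated Cnot1 exon bases overlaps exons of Setd6 on the opposite strand (34.3 FPKM).

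Cnot3, a regulatory subunit and the most abundant of these genes, had 188, 205 and 265 FPKM in IVM and 129, 129 and 161 FPKM in IVO samples. The groups did not overlap, but the gene did not pass the test (log2FC -0.64, 95% interval -1.10 to -0.17, limma adjusted p = 0.0566). It passed where only genes with a mean of at least 5 FPKM were tested (adjusted p = 0.0482), and the log2FC was -0.32 after median-ratio scaling. Cnot4, a ubiquitin ligase that associates with the complex, was the opposite case, with 76.9 to 97.7 FPKM in IVM and 103 to 111 FPKM in IVO samples (log2FC 0.35, adjusted p = 0.191). It passed after median-ratio scaling, with a log2FC of 0.67 (adjusted p = 0.0358). The other subunits overlapped between the groups. Cnot2, which forms the module with Cnot3, ranged from 37.9 to 57.9 FPKM, Cnot9, which binds recruiters, from 9.83 to 23.4 FPKM, and Cnot11 from 46.2 to 66.7 FPKM. Cnot10, the partner of Cnot11, lay between 0.64 and 1.51 FPKM.

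All 4 catalytic subunits of CCR4-NOT had positive log2FC values, between 0.19 and 0.44, and none was called. Cnot7, the most abundant, had 729, 608 and 599.7 FPKM in IVM and 929, 859 and 836 FPKM in IVO samples. IVO was above IVM in every sample. The means were 646 ± 72.4 and 875 ± 48.5 FPKM (SD, n = 3 each), and the log2FC was 0.44 (95% interval 0.09 to 0.79, limma adjusted p = 0.0712). It was 0.76 with an adjusted p of 0.0204 after median-ratio scaling, 0.78 with 0.0134 after scaling to the same sum, and 0.64 with 0.0336 after each library's trend with gene length was removed. Annotated exons of Zdhhc2 (0.973 FPKM) cover 24.8% of the Cnot7 exon bases on the opposite strand, and those of Vps37a (13.2 FPKM) cover 6.96%.

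Cnot6l, the deadenylase of the other catalytic family that maternal mRNA clearance in mice is known to use, had 191, 159 and 211.5 FPKM in IVM and 235, 223 and 232 FPKM in IVO samples. The 3 IVO values were close together and above every IVM value. The log2FC was 0.31 (95% interval -0.09 to 0.70, limma adjusted p = 0.238), or 0.63 with an adjusted p of 0.0379 after median-ratio scaling. Their paralogs were lower in level and overlapped between the groups, Cnot8 at 34.1 to 60.5 FPKM and Cnot6 at 16.9 to 31.3 FPKM.

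PARN, a deadenylase that binds the cap and also trims non-coding RNAs, was the only called gene of the other deadenylases. Parn (chromosome 16, 13350710 to 13486042) had 273, 474 and 331 FPKM in IVM and 69.1, 151 and 210.5 FPKM in IVO samples. The groups did not overlap, although IVO samples differed among themselves by more than the gap to IVM. IVO averaged 40.0% of IVM (144 ± 71.0 compared with 359 ± 104 FPKM, SD, n = 3 each), with a log2FC of -1.42 ± 0.42 (SE, limma adjusted p = 0.0475). The adjusted p was 0.121 after median-ratio scaling, with a log2FC of -1.10, and it was 0.104 with no filter on low genes and 0.0529 with a pseudocount of 0.1. The call held when IVO sample 3 was left out (adjusted p = 0.0273) but not without IVM sample 1 (0.0875), 2 (0.1499) or 3 (0.118) or IVO sample 1 (0.0751) or 2 (0.0845). Pan2, the nuclease that starts tail shortening, ranged from 32.1 to 46.3 FPKM and its partner Pan3 from 84.2 to 122 FPKM, both overlapping (log2FC 0.23 and 0.07).

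**Figure D3:**
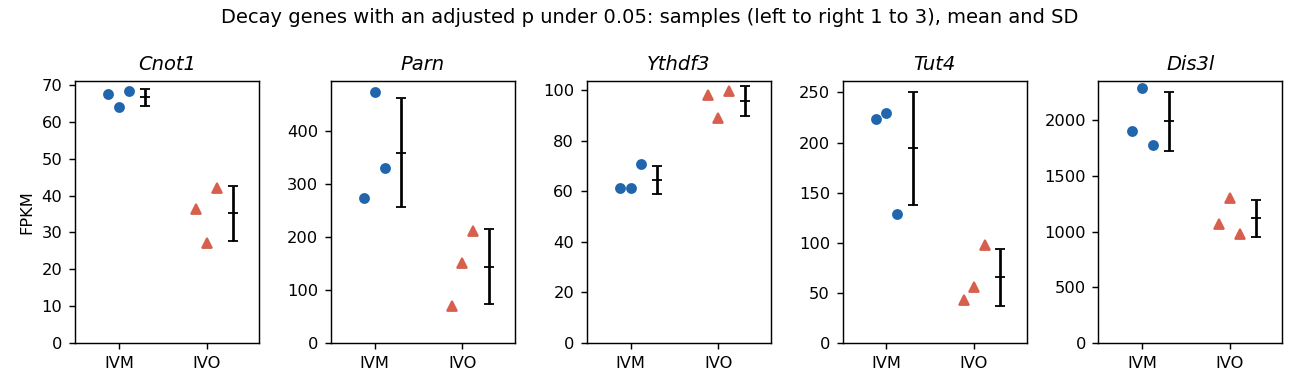
FPKM of the 5 decay genes with a limma adjusted p under 0.05 in IVM (circles) and IVO samples (triangles), samples 1 to 3 from left to right, with the group mean and SD as bars and each axis from 0. Cnot1, Parn, Tut4 and Dis3l are lower in every IVO sample than in every IVM sample, and Ythdf3 is higher.

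The RNA-binding recruiters fix which mRNAs are deadenylated, and the 7 genes here spread over a wide range of levels. Pabpn1l, an oocyte poly(A)-binding protein that works with BTG4, had 483, 254 and 392 FPKM in IVM and 210.02, 223 and 271 FPKM in IVO samples. IVM sample 2 lay within the IVO range. The log2FC was -0.64 (95% interval -1.25 to -0.03, limma adjusted p = 0.119), and without IVM sample 2 it was -0.90 with an adjusted p of 0.0358.

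Ythdf3, a reader of N6-methyladenosine in mRNA (chromosome 3, 16237297 to 16271201), had 61.5, 61.3 and 70.7 FPKM in IVM and 98.3, 88.9 and 99.8 FPKM in IVO samples. All IVO samples were above all IVM samples. IVO averaged 148% of IVM (95.6 ± 5.92 compared with 64.5 ± 5.38 FPKM, SD, n = 3 each), and the log2FC was 0.56 ± 0.17 (SE, limma adjusted p = 0.0487), or 0.88 with an adjusted p of 0.0155 after median-ratio scaling. The call held without IVM sample 3 (adjusted p = 0.0450) and was lost without IVM sample 1 (0.0967) or 2 (0.0847) or IVO sample 1 (0.141), 2 (0.104) or 3 (0.126).

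Its paralogs were not called. Ythdf2, which is needed for maternal mRNA dosage in mouse oocytes, had 35.6, 24.9 and 43.1 FPKM in IVM and 41.4, 36.4 and 39.4 FPKM in IVO samples. The IVO values lay inside the IVM range, with a log2FC of 0.21 (95% interval -0.35 to 0.76, limma adjusted p = 0.577). The log2 ratio of Ythdf2 to Ythdf3 overlapped between the groups (difference -0.36, exact permutation p = 0.3, adjusted p = 0.6 over 12 ratios). The smallest p that 3 against 3 samples allow in this test is 0.1, so it could not show that the paralogs differ. Ythdf1 ranged from 1.4 to 4.03 FPKM.

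The Zfp36 family binds AU-rich elements. Zfp36l2, known for its part in oocyte maturation and fertility, had 0.36, 0.3 and 0.83 FPKM in IVM and 0.45, 0.71 and 0.72 FPKM in IVO samples. These values overlap and are above the 3-fragment floor of 0.0468 to 0.0549 FPKM for its length, so it was detected at a low level and not tested. Zfp36 had 0.98 to 1.38 FPKM in IVM and 1.7 to 3.99 FPKM in IVO samples, which did not overlap, with a log2FC of 0.76 (limma adjusted p = 0.108). Zfp36l1 lay between 0.04 and 0.28 FPKM.

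The paired terminal uridylyltransferases add uridines to short tails and act together in growing oocytes. Tut4 (chromosome 4, 108316587 to 108418927) had 223, 229.9 and 129 FPKM in IVM and 42.4, 56.1 and 97.7 FPKM in IVO samples. The groups did not overlap, and the nearest pair was IVM sample 3 and IVO sample 3. IVO averaged 33.7% of IVM (65.4 ± 28.8 compared with 194 ± 56.6 FPKM, SD, n = 3 each). Its log2FC of -1.59 ± 0.36 (SE, limma adjusted p = 0.0201) was the most negative among the tested members. After median-ratio scaling it was -1.28 (adjusted p = 0.0604), and after scaling to the same sum -1.26 (adjusted p = 0.0351). The call was lost without IVM sample 1 (adjusted p = 0.0783) or 2 (0.0768) or IVO sample 1 (0.0542) or 2 (0.0595). Exons of Prpf38a overlap 1.96% of the Tut4 exon bases on the opposite strand. Tut7 had 7.77, 8.07 and 9.83 FPKM in IVM and 9.23, 10.1 and 6.72 FPKM in IVO samples. The IVO values spanned the IVM values, and the log2FC was 0.01 (95% interval -0.52 to 0.54, limma adjusted p = 0.986).

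No decapping gene was called. Dcp2, the enzyme that removes the cap, had 115.5, 170.0 and 199 FPKM in IVM and 130.02, 142 and 90.7 FPKM in IVO samples. The groups overlapped, with a log2FC of -0.40 (95% interval -1.04 to 0.23, limma adjusted p = 0.327). Its activator Dcp1a ranged from 84.3 to 138 FPKM, and the paralog Dcp1b from 0.06 to 0.46 FPKM. Edc4, a decapping scaffold, had 41.8 to 67.2 FPKM in IVM and 33.3 to 39.2 FPKM in IVO samples (log2FC -0.62, limma adjusted p = 0.0912), and without IVM sample 2 the adjusted p was 0.0355. Exons of Nrn1l (274 FPKM) share 16.6% of the Edc4 exon bases on the same strand, so fragments there can be assigned to either gene. Edc3 was listed at 0 in 3 samples and at 0.02, 0.02 and 0.06 FPKM in the other 3, against a 3-fragment floor of 0.0283 to 0.0331 FPKM for its length.

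Of the exonucleases, Dis3l was the second most abundant of the 37 genes. It encodes the catalytic subunit of the cytoplasmic exosome, which degrades RNA from the 3′ end (chromosome 9, 64214038 to 64248812). Dis3l had 1901, 2286 and 1782 FPKM in IVM and 1072, 1307 and 980.2 FPKM in IVO samples. Every IVO sample was below every IVM sample. IVO averaged 56.3% of IVM (1119.7 ± 168 compared with 1990.0 ± 264 FPKM, SD, n = 3 each), with a log2FC of -0.83 ± 0.17 (SE, limma adjusted p = 0.0143). The call held when each sample in turn was left out (adjusted p = 0.0239 to 0.0498), and the value was -0.51 (adjusted p = 0.101) after median-ratio scaling. Exons of Tipin (502 FPKM) overlap 7.0% of the Dis3l exon bases on the opposite strand. That share is of 11823 annotated exon bases, whereas the deposited length of Dis3l is 3575 bases. The kits do not mark strand, so strand cannot tell apart the fragments there. The same holds for the opposite-strand overlaps of Cnot1, Cnot7 and Tut4.

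The 5′ exonucleases were far lower. Xrn2, the nuclear enzyme, had 33.9 to 34.8 FPKM in IVM and 38.1 to 47.7 FPKM in IVO samples, which did not overlap (log2FC 0.29, limma adjusted p = 0.283). Xrn1, the cytoplasmic enzyme that acts after decapping, ranged from 3.25 to 9.99 FPKM, with both extremes in IVO samples. Upf1, the NMD helicase, had 7.35, 6.85 and 8.43 FPKM in IVM and 9.42, 7.44 and 9.08 FPKM in IVO samples. The groups overlapped (log2FC 0.17, 95% interval -0.30 to 0.65, limma adjusted p = 0.580).

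A ratio of paralogs or partners within a sample is not changed when all values of a library are multiplied by 1 factor, apart from the added pseudocount. Quantile normalization and the removal of a length trend can change it, and the ratios were not recomputed under either. Of 12 such ratios, computed on FPKM + 1, 10 overlapped between the groups. In the deadenylases the order of the paralogs was the same in all 6 samples. Cnot7 had 10.01 to 17.8 times the FPKM of Cnot8, and Cnot6l had 6.76 to 10.4 times that of Cnot6. Btg4 had 329 to 531 times the FPKM of Btg1.

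Ythdf2 relative to Ythdf1 was one of the 2 ratios that did not overlap, and was higher in IVO. The FPKM of Ythdf2 was 10.4, 9.16 and 10.7 times that of Ythdf1 in IVM and 14.1, 25.99 and 18.2 times in IVO samples (difference of the log2 ratios 0.69). Pan2 relative to Pan3 was higher in IVO by 0.16 on the log2 scale. Both had p = 0.1 in the exact two-sided permutation test, the smallest value that 3 against 3 samples allow, and an adjusted p of 0.6 over the 12 ratios. For Tut7 relative to Tut4 the log2 ratio was -4.68, -4.67 and -3.58 in IVM and -2.08, -2.37 and -3.68 in IVO samples. The difference of the means was 1.602, but IVO sample 3 fell below IVM sample 3, and the exact permutation p was 0.2.

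**Figure D4:**
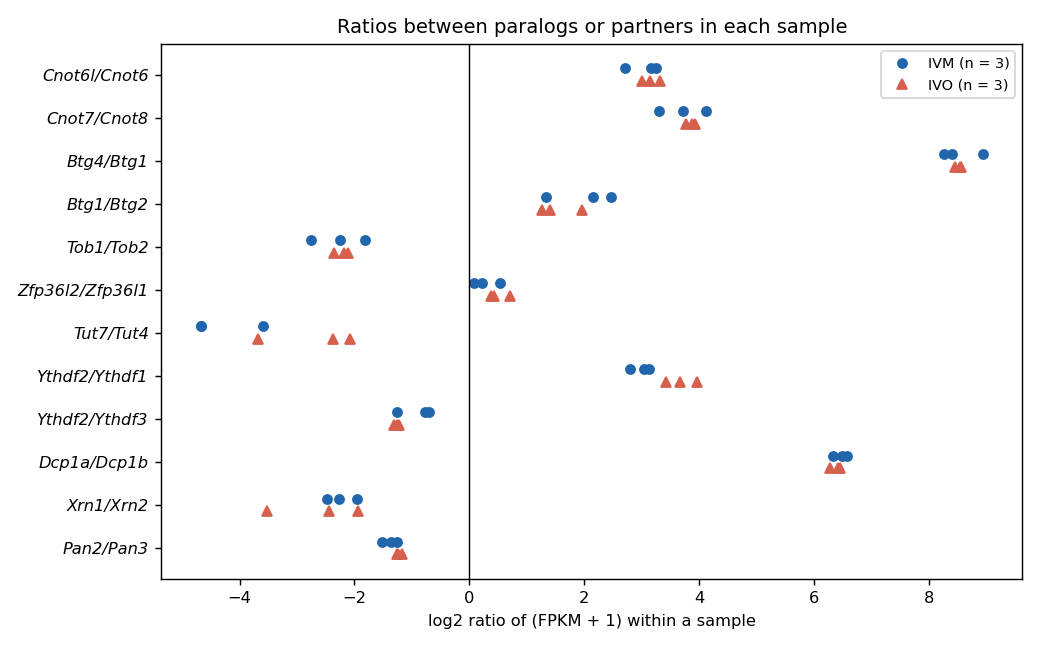
log2 ratio of FPKM + 1 between 2 decay genes in each IVM (circles) and IVO sample (triangles), for 12 pairs of paralogs or partners. Ythdf2/Ythdf1 and Pan2/Pan3 are apart between the groups, and the other 10 pairs overlap.

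Of 57 other genes of mRNA decay in 5 lists, 50 were tested, and 7 were lower and 1 was higher in IVO at a limma adjusted p under 0.05 (16.0%, compared with 23.4% of all tested genes). Their median log2FC was -0.15. The decapping activators held 4 of the 7 lower genes, out of 14 tested (28.6%, compared with 21.5% of all tested genes called lower). The difference between these shares was not tested. All 4 lower activators encode LSm proteins. Subunits 1 to 7 form a ring that binds the oligoadenylated 3′ end and promotes decapping, and with another subunit in place of LSM1 they form the ring of the U6 snRNP in the nucleus. Lsm1, the subunit particular to the decapping ring, had a log2FC of 0.01 (adjusted p = 0.988), or 0.32 after median-ratio scaling, and Lsm3 (-0.74, adjusted p = 0.0624) and Lsm7 (-0.57, adjusted p = 0.132) did not pass. Lsm4 had 79.8, 53.5 and 52.2 FPKM in IVM and 1.91, 1.32 and 2.58 FPKM in IVO samples. Its groups were far apart, with a log2FC of -4.41 (adjusted p = 0.000614). Lsm6 had a log2FC of -3.19 (adjusted p = 0.00148), and Lsm5, the most abundant activator at 902 ± 227 FPKM in IVM and 288 ± 35.4 FPKM in IVO (SD, n = 3 each), of -1.62 (adjusted p = 0.00390). Lsm2 had a log2FC of -1.15 (adjusted p = 0.0146). After median-ratio scaling all 4 still passed, with log2FC values of -4.15 for Lsm4, -2.88 for Lsm6, -1.30 for Lsm5 and -0.83 for Lsm2. The call of Lsm2 was lost after quantile normalization (adjusted p = 0.0882) and without IVM sample 1 (0.0533). With the length trend removed Lsm5 had a log2FC of -0.90 (adjusted p = 0.0290, or 0.0781 with the replicate block added).

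In the other lists few genes passed. Among 11 tested recruiters, Samd4b, a Smaug-family RNA-binding protein, was lower in IVO, and Pum2, a Pumilio protein, was higher. Samd4b had 445 ± 178 FPKM in IVM and 68.7 ± 33.4 FPKM in IVO (SD, n = 3 each, log2FC -2.71, limma adjusted p = 0.00486). Pum2 had 14.5 ± 3.46 FPKM in IVM and 25.99 ± 0.32 FPKM in IVO (log2FC 0.83, limma adjusted p = 0.0334). Tnrc6b, a GW182 protein and the most abundant recruiter, had a log2FC of -0.59 (adjusted p = 0.0609). Among the NMD factors, Smg6, the NMD endonuclease and the most abundant factor of the list, was lower in IVO (log2FC -0.68, adjusted p = 0.0465). The calls of Smg6 and Pum2 depended on which samples were included. With 1 sample left out in turn, the adjusted p stayed under 0.05 for Smg6 and Pum2 without IVM sample 3 alone (0.0381 and 0.0247), and otherwise reached up to 0.142 for Smg6 and 0.0921 for Pum2. After median-ratio scaling Pum2 still passed (adjusted p = 0.0142), whereas Smg6 (0.274) did not. Called genes numbered 0 of 14 for the exosome and SKI complex by limma, with 3 lower and 4 higher at an unadjusted p under 0.05 and 5 called higher after median-ratio scaling. They numbered 0 of 4 for the other deadenylases, with 1 higher at an unadjusted p under 0.05 and 0 after median-ratio scaling. Of all 18818 tested genes, 5903 were lower and 1047 higher at an unadjusted p under 0.05 by limma. After median-ratio scaling 7.14% of all tested genes were called higher. Exosc7 (log2FC -0.16) and Noct (0.37) were the most abundant members of these lists.

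**Figure D5:**
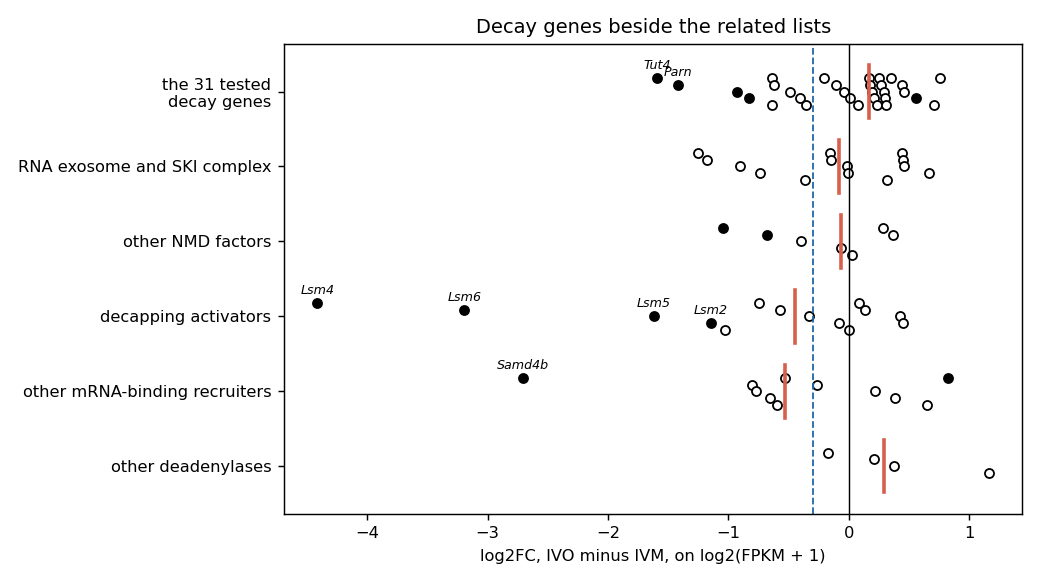
log2FC (IVO minus IVM, log2(FPKM + 1) scale) of the 31 tested decay genes and of the tested genes of 5 related lists, one point per gene, filled where the limma adjusted p was under 0.05. Red bars are the medians of the lists (0.17 for the decay genes) and the dashed line is the median of all tested genes, -0.30; Lsm4 at -4.41 lies farthest from 0.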

How the data were processed

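RNA was measured in 6 pools of MII oocytes (3 IVM, 3 IVO) with the SMART-Seq v4 and Nextera XT kits, which do not mark strand. The authors trimmed the reads (SeqPrep, Sickle), mapped them with HISAT2 2.1.0 to the GRCm39 genome, and deposited the FPKM per gene from RSEM 1.3.3, a level that is normalized to transcript length and library size and that moves when a few abundant genes take a larger share. Groups and replicate numbers came from the sample titles. The deposited group means were not used.

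The FPKM entered as deposited. IVO was compared with IVM in R 4.3.3 with limma 3.58.1 (lmFit, eBayes with trend) on log2(FPKM + 1), which understates the change of low genes, for the 18818 genes with a mean of at least 1 FPKM. Two-sided p-values were adjusted by Benjamini-Hochberg over all of these, and the called genes have an adjusted p under 0.05. The fit was tested on simulated data with 200 genes changed by known amounts. It called 89 of these (44.5%) and 4 unchanged genes, so a gene that was not called was not shown to be unchanged. The known amounts exceeded in size the log2FC of every tested member that was not called. The share therefore does not give the power for changes as small as theirs. A count test was not run, since only 78.6% to 81.1% of the low values used (up to 5.5 fragments, transcripts of 500 to 2000 bases) were within 0.15 of whole fragments. Depth and fragment length were inferred from these steps, and amplified fragments are not independent molecules. Ratios were compared by exact permutation tests. Sequences and overlaps came from GRCm39 with GENCODE M39. Scripts used Python 3.11.15, pandas 2.3.3, numpy 2.4.6 and scipy 1.17.1.

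The 37 genes, the 5 related lists, the markers and the tests were chosen with earlier results of these data known. All 37 are named. Values in every sample are given for called genes, the most abundant gene of each role, and Btg4, Cnot6l, Cnot7, Zfp36l2, Pabpn1l, Tut4, Tut7 and Ythdf2. Of each related list, the most abundant gene and up to 2 called genes in each direction were to be named, and Lsm1, Lsm2, Lsm3 and Lsm7, outside this rule, were added after their values were seen. The result of 1 gene that this rule names is not reported here. The results were recomputed under 17 alternatives. These changed the pseudocount (0.1), the filter (none, or a mean of at least 5 FPKM), the scaling (median-ratio, quantile, or an equal sum of FPKM), the eBayes trend (off), the model (a replicate block), the dependence on gene length (a lowess trend, span 0.3, subtracted in each library, without and with the block) and the features (Ensembl genes only), or left out each of the 6 samples.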

Additional observations from a re-analysis of the deposited data

How the results depend on the processing

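With 3 pools a group, intervals were wide: among uncalled members they reached from -1.25 to 1.47 in log2FC. Scaling had the largest effect. Called lower and higher members numbered 4 and 1 as reported, 0 and 4 after median-ratio scaling, 0 and 12 after quantile normalization, 1 and 3 with the same sum, 0 and 2 with the length trend removed, 0 and 0 when the replicate block was added to that, 3 and 0 without the eBayes trend, 5 and 1 with a mean of at least 5 FPKM, 3 and 1 with no filter or with a pseudocount of 0.1, and 4 and 1 with Ensembl genes only. Leaving out 1 sample gave 1 to 4 lower and 0 to 1 higher. Calls among all tested genes moved as well. Of 18818, 2527 were lower and 1083 higher with the same sum, and 1815 and 1302 with the length trend removed. They were 741 and 189 with the block added to that, 3931 and 289 without the eBayes trend, and 3821 and 336 with a pseudocount of 0.1. Without 1 sample they were 2484 to 3415 and 109 to 288. Of 11711 genes at a mean of at least 5 FPKM, 3268 and 401 were called, and of 32852 unfiltered genes 3076 and 255. Members past |log2FC| ≥ 1 were 2 lower and 0 higher as reported. Such members were 0 lower after median-ratio scaling and with the length trend removed (with or without the replicate block). They were 1 lower with a pseudocount of 0.1, no filter, the same sum, no eBayes trend or the replicate block. After quantile normalization they were 0 lower and 3 higher, and without 1 sample 0 to 3 lower. Of all tested genes, 2132 and 387 passed lower and higher after median-ratio scaling, and 1580 and 1097 after quantile normalization. The same replicate numbers correlated at -0.06, -0.02 and -0.11 in their deviations from the group means, and different numbers at -0.02 to 0.08. With 3 samples a group these values cannot decide whether equal numbers share a batch, and the sample titles do not say. With the replicate block 3 members were lower and 0 higher, and 5 and 0 related genes, compared with 3027 and 118 of all tested genes.

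Related genes called lower and higher, 7 and 1 as reported, were 5 and 8 after median-ratio scaling, 4 and 13 after quantile normalization, 4 and 6 with the same sum, 4 and 7 with the length trend removed, 3 and 0 with the replicate block added to that, and 0 higher with no filter. Without 1 sample they were 5 to 7 lower and 0 to 2 higher. The related genes tested as reported numbered 50. Of all tested genes, 13.2% were called lower and 7.14% higher after median-ratio scaling, and 10.7% and 14.8% after quantile normalization. The numbers of all genes under the other settings are given above.

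Of 524 fits of members under alternatives, 436 kept direction and side of the threshold, 44 lost and 20 gained the call, and 24 reversed, none of them in a called member. After median-ratio scaling, quantile normalization and scaling to the same sum, the log2FC turned positive in Cnot11 (0.11, 0.27 and 0.12), Dcp1a (0.28, 0.47 and 0.29) and Xrn1 (0.16, 0.38 and 0.18). That of Exosc7, a related gene outside these 524 fits, also turned positive (0.16, 0.36 and 0.18). With the length trend removed, without and with the replicate block, the log2FC was 0.14 in Dcp1a, 0.076 in Xrn1 and 0.13 in Exosc7. After quantile normalization it was 0.12 in Tob2 and 0.092 in Dcp2. Leaving out 1 sample turned the sign in Pan3 (-0.024 to 0.24), Ythdf2 (-0.0049 to 0.38), Tut7 (-0.10 to 0.16), Dcp1a (-0.22 to 0.13) and Xrn1 (-0.44 to 0.24). The ratio Tob1/Tob2 went from 0.05 to -0.26 with a pseudocount of 0.1. Leaving out 1 sample turned the differences of Tob1/Tob2 (-0.18 to 0.28), Cnot6l/Cnot6 (-0.048 to 0.22), Cnot7/Cnot8 (-0.061 to 0.35), Btg4/Btg1 (-0.15 to 0.19) and Xrn1/Xrn2 (-0.75 to 0.044). The causes of these changes were not tested.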
